A study of Mus musculus with 12 samples.

Results

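The 39 genes described here encode fibrillar, network-forming and basement membrane collagens, the small proteoglycans and elastic fibre proteins that assemble with them, and receptors and contractile proteins by which fibroblasts and pericytes are recognised. They were chosen by gene symbol, and all 39 were among the 55304 genes of the deposited table. The table came from *Pomc*-eGFP mice (genotype POMC-GFP, C57Bl6/J background), in which eGFP is driven by the *Pomc* promoter and labels corticotrophs, the ACTH-releasing cells of the anterior pituitary, for sorting. Male mice, 8 weeks old at the start, formed 4 groups: control mice given standard drinking water (group A), mice given 2.5 µg/ml dexamethasone (DEX), a synthetic glucocorticoid, in the water for 4 weeks (group B), and mice given the same treatment followed by 7 days (1 week, group C) or 28 days (4 weeks, group D) without it. Every group, control included, carried the same transgene and went through the same sort. By the account of the study, the eGFP profile of the sorted cells nonetheless differed between groups. It reports that DEX moved cells toward lower eGFP, most clearly in group D. Whether this shift bears on the levels below was not tested. Each group had 3 libraries (n = 3), and each library held sorted cells of 2 to 3 anterior pituitaries freed of the posterior and intermediate lobes, so that the replicates were pools of mice. The RNA was below the detection limit of the fluorometer and was amplified from its poly(A) tails before sequencing.

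The extracellular matrix of the pituitary is laid down largely by fibroblasts, by pericytes, which wrap capillaries, and by endothelial cells. Fibrillar collagens give the tissue tensile strength, type IV collagen forms the sheet on which endothelial and epithelial cells rest, and small leucine-rich proteoglycans bind collagen fibrils and set their spacing. Lysyl oxidases then crosslink collagen and elastin. Endocrine cells are not regarded as the main makers of interstitial collagen, and the sort selects them by eGFP alone, so the levels below are those of the sorted pools and not of one cell type. In bulk samples, fewer cells of a type and less RNA per cell cannot be told apart.

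Values are normalised counts, that is CPM taken on a library size adjusted by a scaling factor. Reads on genes ranged from 7719894 to 12848078 per library, and 1 read was worth 0.0787 to 0.127 normalised counts. The 39 members together held 2936 to 6009 reads per library, that is 0.0304% to 0.0581% of the reads on genes, so most members rest on few reads. At most 3 reads, taken as the floor, were found for 3 to 15 members per library. Corticotroph markers were present in every library, their 6 genes summing to 35294 to 75533 in control, 5558 to 9417 in DEX, 43869 to 286223 at 1 week and 48721 to 80895 at 4 weeks. The lower sum in DEX does not describe each of the 6 genes. Their log2 fold changes for DEX against control were above 0 for 3 and below 0 for 3, from −3.41 to 1.87. Of the lists of 10 fibroblast and 10 pericyte markers, 1 gene each was at 3 reads or fewer in every library. Most of the fibroblast sum came from *Gsn* (45.7 to 161) and *Serping1* (5.61 to 28.5), which many other cell types also express, while *Twist1* was listed at 0 in all libraries but control pool 1 (0.157), *Higd1b* had values above 0 in 2 libraries (0.166 and 0.111), and *Dpt* did not exceed 0.462. Mice were pooled within cages of 3, so the pools of a group came from different cages, and p-values measure the spread between such pools.

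Across the 4 groups the most frequent order was low in DEX and high 4 weeks after withdrawal. The group mean was highest at 4 weeks for 30 of the 39 members, against 22.8% of the 24736 genes tested, and lowest in DEX for 28 of the 39, against 31.2%. Among the 33 members outside the study's own list of changed genes these counts were 25 and 23. The 39 were chosen with earlier results of these data known, so the counts are descriptive. All 39 members passed the filter on low values (above 0.1 in 3 libraries or more). Levels were compared with limma on log2(value + 0.1), and p-values were adjusted by Benjamini-Hochberg over all genes tested. On this scale the change of a low gene can come out smaller or larger than in a count model. The log2 fold change at 4 weeks against control was 3.13 for *Col5a2* and 3.12 for *Dcn*. The quasi-likelihood fit of edgeR on reads gave 4.64 and 1.51. In the F test among the 4 groups 1 member passed an adjusted p of 0.05, *Col3a1*, where 0.315% of all genes passed. An unadjusted p under 0.05 was reached by 19 members, against 9.21% of all genes. edgeR's quasi-likelihood F test on the recovered reads called 6 members (*Col3a1*, *Col8a2*, *Col4a1*, *Col4a2*, *Mfap4* and *Pdgfrb*), against 0.667% of all genes. These 6 are the members that the study itself listed as changed on the same samples, so their calls are not independent evidence, and none of the other 33 members passed that test. The likelihood ratio test of edgeR called 17 members and DESeq2 called 12, where they called 4.16% and 2.97% of all genes. The heat map of the members by pool shows this order and its exceptions.

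**Figure D1:**
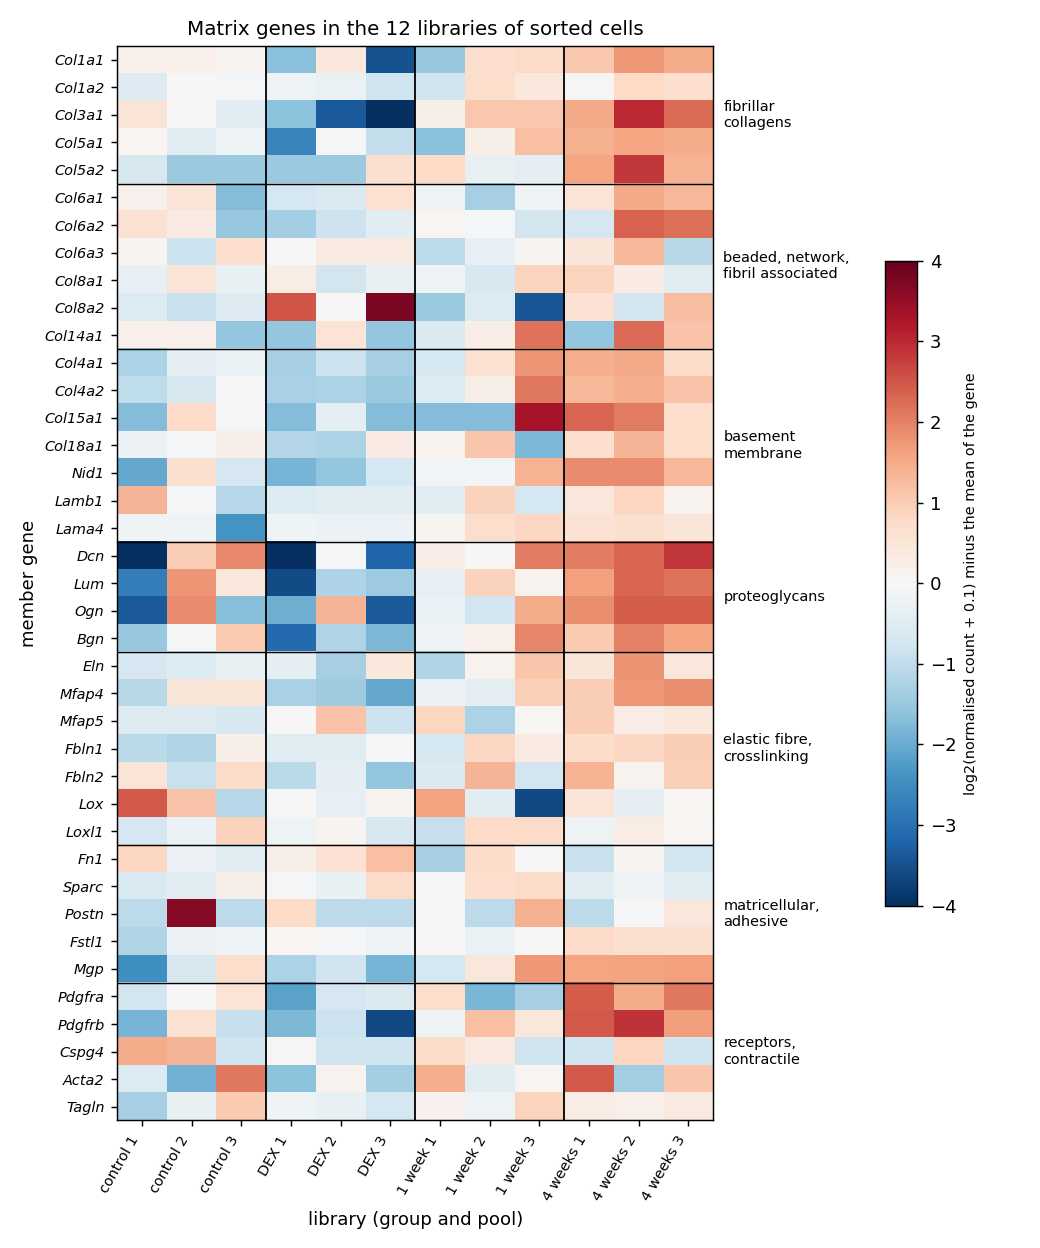
Heat map of the 39 members (rows, grouped by role) in the 12 libraries (columns, 3 pools per group), coloured by log2(normalised count + 0.1) minus the mean of the gene over the 12 libraries. Most rows are blue in the 3 DEX pools and red in the 3 pools 4 weeks after withdrawal, *Col8a2* is reddest in DEX pools 1 and 3, and *Dcn*, *Lum* and *Ogn* are blue in control pool 1.

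By comparison, the median member was below control under DEX and above it 4 weeks after withdrawal in every alternative, while at 1 week its direction depended on the fit. The median log2 fold change was −0.55 for DEX against control, 0.42 for 1 week against control and 1.42 for 4 weeks against control, while the median of all genes tested was −0.02, 0.00 and 0.00. For DEX it ran from −0.90 to −0.27 over the alternatives that kept every library, the smallest with a pseudocount of 1, and from −0.78 to −0.37 with 1 library left out. At 1 week it was −0.11 with array weights, 0.14 without control pool 1 and 0.20 without pool 3 at 1 week. Against DEX the median of the members was 0.68 at 1 week and 1.61 at 4 weeks, and 4 weeks against 1 week it was 0.86, with 0.03, 0.00 and −0.02 for all genes. At 4 weeks, 34 of the 39 members had a positive log2 fold change against control and 25 had one above 1, where 50% and 6.53% of all genes did. Among the 33 members outside the list of the study the median against control was 1.22 at 4 weeks. The plot of fold changes sets each member beside these medians.

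**Figure D2:**
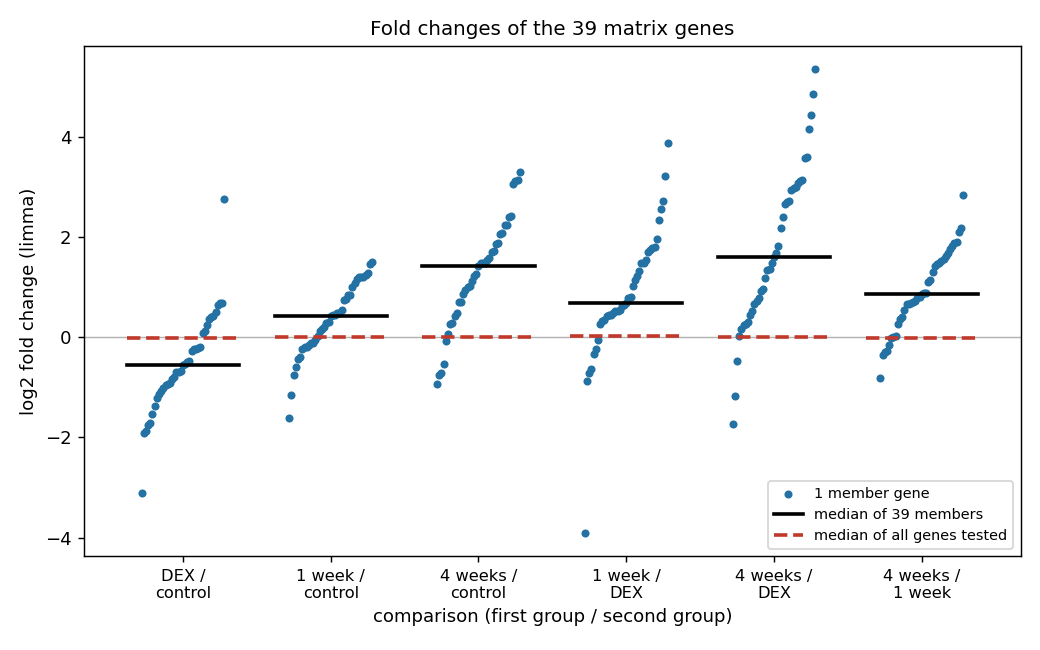
Log2 fold change (limma, vertical axis) of each of the 39 members, sorted within each of 6 comparisons (horizontal axis, first group over second), with the median of the members (black line) and of all genes tested (red dashed line). The median of the members is −0.55 for DEX against control and 1.42 for 4 weeks against control, and that of all genes stays between −0.02 and 0.03.

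No member passed the adjusted threshold for DEX against control (0.121% of all genes did), for 1 week against control, for 4 weeks against control or for 4 weeks against 1 week (0% of all genes in each of the latter 3). Unadjusted p-values under 0.05 in limma were reached by 4 members for DEX against control (6.8% of all genes), 4 for 1 week against control (3.79%), 18 for 4 weeks against control (6.35%) and 9 for 4 weeks against 1 week (5.47%). edgeR's quasi-likelihood test also called 0 members in each of these 4 comparisons (0.182%, 0.00809%, 0% and 0% of all genes in the same order). For DEX against control, edgeR's likelihood ratio test called 5 members and DESeq2 called 2 (1.1% and 0.768% of all genes). At 4 weeks against control they called 6 and 3 (0.38% and 0.243%), and for 1 week against control and 4 weeks against 1 week both called 0 (0.202% and 0.667% of all genes by the likelihood ratio test, 0.0323% and 0.0606% by DESeq2). *Col3a1* alone was called at 1 week against DEX by limma (0.433% of all genes; unadjusted p under 0.05 for 11 members, against 10.8%), and edgeR's quasi-likelihood test, its likelihood ratio test and DESeq2 called 2, 10 and 5 members (0.586%, 2.83% and 2.32%). For 4 weeks against DEX 7 members were called, all of them higher at 4 weeks: *Col3a1*, *Col4a1*, *Col4a2*, *Nid1*, *Bgn*, *Mfap4* and *Pdgfrb*, where 0.873% of all genes were called and 0.412% called higher. An unadjusted p under 0.05 was reached by 23 members, against 9.94%. The quasi-likelihood test called the same 7 members, the likelihood ratio test 15 and DESeq2 11 (0.865%, 2.68% and 2.65%). *Nid1* and *Bgn* are outside the list of the study. The count of 7 was not stable when 1 pool was left out, which also makes its group smaller. It was 1 (*Col3a1*) without DEX pool 1, without DEX pool 3 or without any 1 of the 3 pools at 4 weeks. It was 5 without DEX pool 2, and 10 without control pool 1 or without pool 3 at 1 week. Over these fits the log2 fold changes of the 7 members for 4 weeks against DEX all stayed positive, the lowest being 2.26 (*Col4a1*).

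Counted by pools that did not overlap, 21 members had all 3 pools at 4 weeks above all 3 control pools and none had them below, against 6.77% and 6.42% of all genes. Against DEX, 25 members had all 3 pools at 4 weeks higher and 1, *Fn1*, had them lower (9.8% and 9.67%). Among the 33 members outside the list of the study, 16 were wholly higher at 4 weeks than control and 20 than DEX. DEX pools lay wholly below control for *Col3a1*, *Col4a2* and *Mfap4* and wholly above it for *Col8a2* and *Fstl1* (6.23% and 6.61% of all genes). At 1 week *Col5a2* and *Lama4* lay wholly above control and 0 members below it (3.47% and 2.61%). In the same pools 11 members lay wholly above DEX and 1, *Col8a2*, below it (6.97% and 6.87%). For 4 weeks against 1 week, 12 members were wholly higher and 1 lower (5.19% and 3.72%). With 3 pools against 3, an exact permutation test of a single gene cannot go below p = 0.1.

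Levels per kilobase of exon spanned a wide range. *Sparc* had the highest mean over the 12 libraries (26.9 normalised counts per kb), followed by *Col1a2* (11.3), *Loxl1* (8.24), *Mgp* (5.04) and *Lox* (3.78). *Cspg4*, which encodes the pericyte proteoglycan NG2, was lowest (0.00954), with 14 reads in all libraries together. *Col1a2*, *Sparc*, *Loxl1* and *Lox* were also the 4 most abundant in normalised counts. Their sum did not separate the groups, at 237, 249 and 292 in the control pools, 239, 226 and 268 in DEX, 223, 418 and 381 at 1 week and 246, 353 and 319 at 4 weeks. The other 35 members summed to 64.99, 97.3 and 105 (control), 57.1, 66.1 and 73.4 (DEX), 79.8, 124 and 193 (1 week) and 219, 260.4 and 224 (4 weeks). For these 35 the pools at 4 weeks were the 3 highest of the 12, and the DEX pools overlapped the control pools.

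Among the fibrillar collagens, all 5 genes had their highest group mean at 4 weeks, and the 3 pools there lay above the 3 control pools for each. *Col3a1* (ENSMUSG00000026043.18, chromosome 1, 45311538 to 45349706, plus strand, GRCm38) encodes type III collagen, the fine fibrillar collagen of vessel walls and loose stroma. Its promoter is shown because it was the only member called by limma among the groups. The 250 bases before its start (RefSeq, GRCm38.p6, chr1:45311288-45311537, plus strand) are printed 5′ to 3′ with a TATAAA match in capitals.
Col3a1: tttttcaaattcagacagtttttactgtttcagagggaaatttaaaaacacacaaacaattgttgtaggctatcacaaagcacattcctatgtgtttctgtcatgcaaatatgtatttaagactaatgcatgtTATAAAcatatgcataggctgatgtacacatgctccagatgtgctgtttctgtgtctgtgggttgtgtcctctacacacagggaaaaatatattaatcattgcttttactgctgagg
TATAAA, searched on both strands, occurs in the same window of 12.4% of 32851 RefSeq promoters and of 3 of the 24 members with an entry (*Col3a1*, *Ogn* and *Postn*).

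*Col3a1* was measured at 2.596, 1.77 and 1.305 in the control pools, 0.497, 0.0818 and 0 in the DEX pools, 2.09, 3.82 and 3.89 in the pools 1 week after withdrawal and 5.27, 14.8 and 9.02 in the pools 4 weeks after withdrawal. DEX was lowest, with 6, 1 and 0 reads in its 3 pools, and no pool of DEX overlapped with any other group, nor did any pool at 4 weeks. The group means were 1.89 ± 0.654 (SD, n = 3) for control, 0.193 ± 0.266 for DEX, 3.27 ± 1.02 for 1 week and 9.69 ± 4.79 for 4 weeks. The log2 fold change was 3.88 (standard error 0.66) for 1 week against DEX (limma, adjusted p = 0.0142) and 5.34 (standard error 0.66) for 4 weeks against DEX (adjusted p = 0.0021). Against control it was −3.12 (standard error 0.66) under DEX (adjusted p = 0.0971) and 2.23 (standard error 0.66) at 4 weeks (adjusted p = 0.557), neither past the threshold. The F test among the groups gave an adjusted p of 0.00899 (edgeR's quasi-likelihood test 0.00376). Without DEX pool 3, the pool with no read, the adjusted p of that F test in limma was 0.0733 and that of 1 week against DEX was 0.0826.

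*Col1a2* (ENSMUSG00000029661.16, chromosome 6, 4504814 to 4541544, plus strand) encodes the second chain of type I collagen, the main collagen of skin, bone and stroma. Its pools held 91.9, 129.9 and 127 in the control pools, 114, 110.1 and 75.9 in the DEX pools, 74.9, 214 and 175 in the pools 1 week after withdrawal and 134, 229 and 208 in the pools 4 weeks after withdrawal. The pools at 4 weeks lay above those of control and DEX, while those at 1 week ran from the lowest value of the 12 to above all control and DEX pools. Its log2 fold change at 4 weeks was 0.69 (standard error 0.35) against control and 0.92 (standard error 0.35) against DEX, with limma adjusted p-values of 0.8 and 0.339. *Col1a1*, which encodes the partner chain of the same triple helix, ranged only from 0 to 3.61. In collagen I the *Col1a1* chain is used in excess of the *Col1a2* chain, yet in these libraries *Col1a2* exceeded *Col1a1* 32.0 to 242 times per kb in the 11 libraries that had a *Col1a1* read. *Col1a1* was measured at 1.18, 1.18 and 1.09 in the control pools, 0.248, 1.39 and 0 in the DEX pools, 0.285, 1.66 and 1.78 in the pools 1 week after withdrawal and 2.22, 3.61 and 2.98 in the pools 4 weeks after withdrawal. Its log2 fold change for 4 weeks against DEX was 2.998 (standard error 0.86) (adjusted p = 0.137). *Col5a1* and *Col5a2*, whose products nucleate fibrils, were lower still, at 0 to 1.75 and 0 to 1.86. *Col5a2* was at the floor of 3 reads in every control and DEX pool and had 8, 17 and 7 reads at 4 weeks.

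The beaded, network-forming and fibril-associated collagens, a class of 6 genes, held a member with another order of the groups. *Col8a2* (ENSMUSG00000056174.8, chromosome 4, 126286793 to 126314330, plus strand) encodes a chain of type VIII collagen, a short-chain collagen of subendothelial sheets and of the Descemet membrane of the cornea. The 250 bases before its start (RefSeq, GRCm38.p6, chr4:126286544-126286793, plus strand) are shown because it alone among the called members was highest under DEX. Capitals mark GGGCGG, the GC box, on either strand, the last pair overlapping.
Col8a2: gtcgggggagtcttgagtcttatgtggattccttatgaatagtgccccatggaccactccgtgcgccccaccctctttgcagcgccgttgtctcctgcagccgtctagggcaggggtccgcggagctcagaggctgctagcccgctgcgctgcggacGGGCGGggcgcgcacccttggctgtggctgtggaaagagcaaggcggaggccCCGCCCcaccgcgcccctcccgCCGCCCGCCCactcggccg
The window holds 4 GC boxes. At least 1 was found for 14 of the 24 members with an entry and in 32.7% of all promoters.

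*Col8a2* was measured at 0.629, 0.471 and 0.652 in the control pools, 5.96, 0.981 and 14.4 in the DEX pools, 0.285, 0.637 and 0 in the pools 1 week after withdrawal and 1.48, 0.547 and 2.44 in the pools 4 weeks after withdrawal. The 3 DEX pools lay above all control pools and all pools at 1 week, but they differed widely among themselves and DEX pool 2 fell within the range of the pools at 4 weeks. The fitted log2 fold change was 2.75 (standard error 0.92) for DEX against control and −3.901 (standard error 0.92) for 1 week against DEX, with limma adjusted p-values of 0.459 and 0.0724. Its F test missed the threshold in limma (adjusted p = 0.213) and passed it in edgeR's quasi-likelihood test (adjusted p = 0.0402). Without DEX pool 2 the comparison of 1 week with DEX passed in limma at an adjusted p of 0.0235. *Col8a1*, its partner chain, had values of 1.55 to 5.003 and gave a log2 fold change of −0.23 (standard error 0.54) for DEX against control.

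*Col6a1* (ENSMUSG00000001119.7, chromosome 10, 76708792 to 76726168, minus strand) encodes a chain of type VI collagen, which forms beaded filaments around cells. The values were 2.67, 3.42 and 0.652 in the control pools, 1.41, 1.55 and 3.701 in the DEX pools, 2.09, 0.892 and 2.11 in the pools 1 week after withdrawal and 3.51, 7.01 and 6.14 in the pools 4 weeks after withdrawal. Control, DEX and 1 week overlapped, and the pools at 4 weeks lay above those of control and of 1 week but not above DEX pool 3. Its log2 fold change at 4 weeks against control was 1.48 (standard error 0.63) (limma, adjusted p = 0.754; log2 fold change 0.80 without control pool 3). *Col6a2*, whose chain joins it in 1 trimer, reached 0.462, 4.49 and 4.06 at 4 weeks against 1.26, 1.06 and 0.217 in control, so pool 1 at 4 weeks lay within the control range and pools 2 and 3 above it. *Col6a3* (0.1805 to 1.42) and *Col14a1* (0 to 1.31), which encodes a fibril-associated collagen, showed no separation of any 2 groups.

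**Figure D3:**
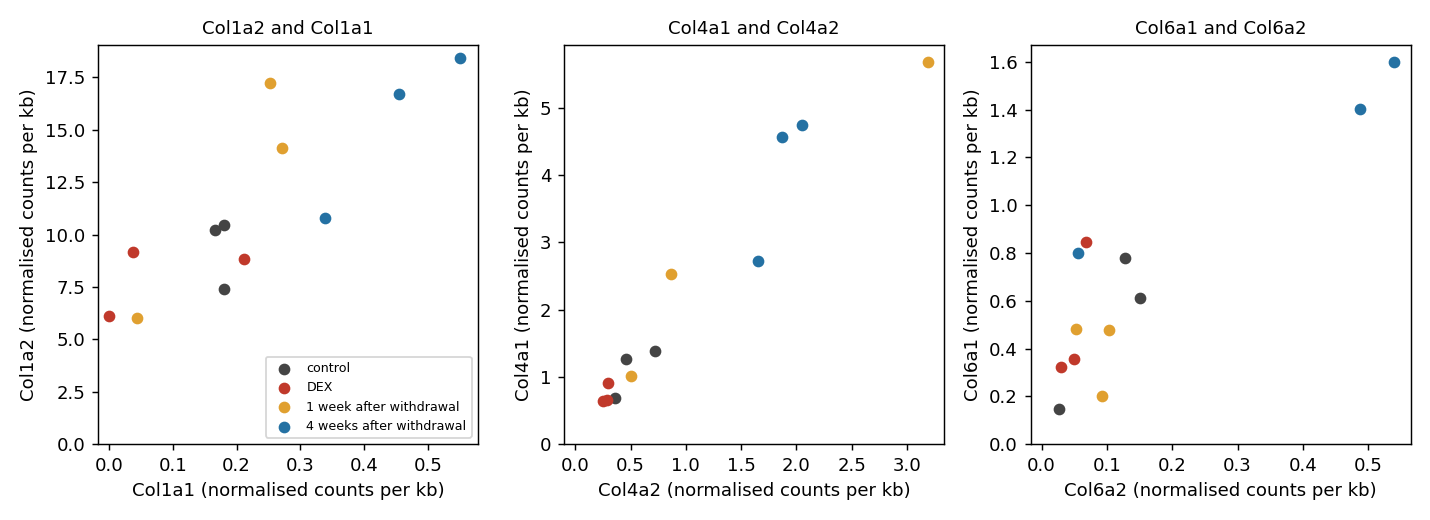
Normalised counts per kb of exon of 3 pairs of collagen chains (vertical axis, first gene; horizontal axis, second gene), 1 point per library coloured by group. *Col1a2* lies far above *Col1a1* in every library, *Col4a1* and *Col4a2* keep a ratio of 1.66 to 3.07 per kb, and *Col6a1* and *Col6a2* are both highest in 2 of the pools at 4 weeks.

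Of the 7 basement membrane genes, 6 had their highest mean at 4 weeks and 6 their lowest in DEX. *Col4a1* (ENSMUSG00000031502.11, chromosome 8, 11198423 to 11312826, minus strand) and *Col4a2* (ENSMUSG00000031503.13, chromosome 8, 11312805 to 11449287, plus strand) encode the chains of the type IV collagen found in all basement membranes. They lie head to head, and their annotated starts overlap by 22 bases (chr8:11312805-11312826, GRCm38.p6), which are shown on both strands because the genes share them.
Col4a2: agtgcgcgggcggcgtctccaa
Col4a1: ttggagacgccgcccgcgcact
The libraries were made with a kit that does not mark the strand, so reads in this overlap cannot be assigned to one of the genes, and *Col4a1* also overlaps the antisense gene *Gm15418*.

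*Col4a1* was measured at 5.11, 9.42 and 10.3 in the control pools, 4.89, 6.79 and 4.82 in the DEX pools, 7.604, 18.9 and 42.5 in the pools 1 week after withdrawal and 34.1, 35.5 and 20.4 in the pools 4 weeks after withdrawal. *Col4a2* was measured at 2.36, 3.06 and 4.78 in the control pools, 1.91, 1.96 and 1.68 in the DEX pools, 3.33, 5.74 and 21.1 in the pools 1 week after withdrawal and 12.4, 13.6 and 10.9 in the pools 4 weeks after withdrawal. For both genes every pool at 4 weeks lay above every control and DEX pool, and pool 3 at 1 week was the highest of the 12. On the log2 scale the change for 4 weeks against DEX was 2.401 (standard error 0.49) for *Col4a1* (limma, adjusted p = 0.0311) and 2.67 (standard error 0.54) for *Col4a2* (adjusted p = 0.029). Against control the values at 4 weeks were 1.86 (standard error 0.49) and 1.88 (standard error 0.54), which did not pass (adjusted p = 0.505 and 0.527). In the F test among the groups the adjusted p of limma was 0.0969 for *Col4a1* and 0.1 for *Col4a2*, and that of edgeR's quasi-likelihood test was 0.0358 and 0.0459. Without pool 3 at 1 week both passed the limma F test, with adjusted p-values of 0.0161 and 0.0174. The ratio of *Col4a1* to *Col4a2* per kb was 1.66 to 3.07 over the 12 libraries (median 2.30), as the plot of chain pairs shows.

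*Nid1* (ENSMUSG00000005397.8, chromosome 13, 13437551 to 13512269, plus strand) encodes nidogen 1, which links the type IV collagen and laminin networks. Its normalised counts were 0.865, 6.13 and 2.39 in the control pools, 0.994, 1.23 and 2.35 in the DEX pools, 3.61, 3.57 and 10.5 in the pools 1 week after withdrawal and 14.6, 14.7 and 9.84 in the pools 4 weeks after withdrawal. Every pool at 4 weeks was above every control and DEX pool, and every pool at 1 week was above every DEX pool. The fold change (log2) for 4 weeks against DEX was 3.08 (standard error 0.62) (limma, adjusted p = 0.029). *Col15a1*, which encodes a collagen at the border of basement membrane and stroma, was listed at 0 in 5 libraries and reached 3.22 in pool 3 at 1 week. *Col18a1*, which encodes the vascular basement membrane collagen that endostatin is cut from, was 9.15, 14.6 and 9.29 at 4 weeks and 4.799, 5.42 and 6.63 in control, and its lowest value, 1.56, was in pool 3 at 1 week, the pool with the most *Col4a1* and *Col4a2*. *Col18a1* overlaps *Slc19a1* on the opposite strand. *Lama4*, a laminin chain of vessels, was 3.38, 3.53 and 0.652 in control against 4.18, 6.37 and 7.004 at 1 week and 5.82, 6.02 and 5.504 at 4 weeks, without overlap. *Lamb1*, another laminin chain, was highest in control pool 1 (18.7) and overlapped between control and the groups after withdrawal.

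Among the small leucine-rich proteoglycans, all 4 genes had their lowest mean in DEX and their highest at 4 weeks. *Dcn* (ENSMUSG00000019929.16, chromosome 10, 97479609 to 97518143, plus strand) encodes decorin, which binds collagen fibrils and is a common marker of fibroblasts. The pools held 0.0787, 11.8 and 22.5 in the control pools, 0.248, 5.72 and 0.561 in the DEX pools, 7.13, 5.86 and 24.9 in the pools 1 week after withdrawal and 24.9, 29.8 and 42.2 in the pools 4 weeks after withdrawal. Control pool 1 held 1 read and the other control pools 100 and 207, so that control pool 1 was the lowest of the 12 libraries. Its log2 fold change was 3.12 (standard error 1.36) for 4 weeks against control, 0.95 without control pool 1, and 4.84 (standard error 1.36) for 4 weeks against DEX, with limma adjusted p-values of 0.758 and 0.126. Without control pool 1 the latter was called at an adjusted p of 0.0127. *Lum*, which encodes lumican, and *Ogn*, which encodes osteoglycin, were low in control pool 1 as well, but their pools at 4 weeks overlapped control, with 0.0787, 4.01 and 1.52 and 0, 3.77 and 0.217 in the control pools and 3.696, 6.02 and 5.32 and 3.696, 5.47 and 5.41 at 4 weeks. *Ogn* lies within *Cenpp* on the opposite strand.

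*Bgn* (ENSMUSG00000031375.17, chromosome X, 73483602 to 73495933, plus strand) encodes biglycan, a close relative of decorin. Measured values were 0.708, 2.12 and 4.68 in the control pools, 0.166, 0.899 and 0.561 in the DEX pools, 1.996, 2.55 and 8.89 in the pools 1 week after withdrawal and 4.71, 9.304 and 6.77 in the pools 4 weeks after withdrawal. DEX pools were below all pools at 1 and 4 weeks and overlapped control, whose lowest pool was again pool 1. The log2 fold change was 3.597 (standard error 0.73) for 4 weeks against DEX (limma, adjusted p = 0.0295), −1.87 (standard error 0.73) for DEX against control (adjusted p = 0.605) and 1.73 (standard error 0.73) for 4 weeks against control (adjusted p = 0.754; log2 fold change 1.06 without control pool 1).

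The 7 elastic fibre and crosslinking genes comprise fibre components and crosslinking enzymes. *Mfap4* (ENSMUSG00000042436.12, chromosome 11, 61485431 to 61488900, plus strand) encodes a glycoprotein of elastic microfibrils. Its values were 0.944, 3.06 and 3.04 in the control pools, 0.828, 0.736 and 0.449 in the DEX pools, 1.81, 1.66 and 4.22 in the pools 1 week after withdrawal and 4.34, 7.44 and 8.03 in the pools 4 weeks after withdrawal. DEX was below all other groups without overlap and 4 weeks was above all others without overlap. The fitted log2 fold change for 4 weeks against DEX was 3.11 (standard error 0.57) (limma, adjusted p = 0.0217), that for DEX against control was −1.54 (standard error 0.57) (adjusted p = 0.559) and that for 4 weeks against control was 1.57 (standard error 0.57) (adjusted p = 0.678; log2 fold change 1.04 without control pool 1). Its F test gave an adjusted p of 0.0982 in limma and 0.0459 in edgeR's quasi-likelihood test. *Mfap4* overlaps *Mapk7* on the opposite strand (mean 9.74 normalised counts). With *Col3a1* and *Col4a2* it was 1 of 3 members whose DEX pools lay below, and whose pools at 4 weeks lay above, all control pools, an order found in 0.368% of all genes.

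*Fbln1*, which encodes the matrix glycoprotein fibulin 1, was 3.46, 3.18 and 8.81 in control and 12.5, 13.4 and 14.8 at 4 weeks without overlap, with a log2 fold change of 1.53 (standard error 0.44) (limma, adjusted p = 0.528). *Eln* (elastin, 0.164 to 2.19), *Mfap5* (0.382 to 2.45) and *Fbln2* (0.336 to 3.23) were low, and for the first 2 the pools at 4 weeks lay above control. The crosslinking enzymes showed no such separation. *Loxl1* (ENSMUSG00000032334.10, chromosome 9, 58287738 to 58313186, minus strand) encodes a lysyl oxidase that acts on elastin. In normalised counts it had 15.6, 20.97 and 47.4 in the control pools, 21.6, 27.2 and 16.04 in the DEX pools, 13.2, 42.6 and 42.8 in the pools 1 week after withdrawal and 21.9, 31.1 and 25.6 in the pools 4 weeks after withdrawal. All 4 groups overlapped, and the log2 fold change was −0.24 (standard error 0.45) for DEX against control and 0.06 (standard error 0.45) for 4 weeks against control (adjusted p = 0.949 and 0.995), with the sign of each turned when a single library was left out. *Lox*, which encodes the founding enzyme of this family, varied more within groups than between them, from 0.889 to 65.6. It was 65.6, 26.4 and 5.33 in control and 36.9, 8.92 and 0.889 at 1 week, so control pool 1 and pool 1 at 1 week were highest and pool 3 at 1 week was lowest.

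The 5 matricellular and adhesive glycoproteins were led in level by *Sparc*. *Sparc* (ENSMUSG00000018593.13, chromosome 11, 55394500 to 55423183, minus strand) encodes osteonectin, a collagen-binding protein made by many cell types. It had 63.5, 71.3 and 112 in the control pools, 91.9, 78.9 and 164 in the DEX pools, 98, 153 and 162 in the pools 1 week after withdrawal and 72.1, 83.8 and 72.6 in the pools 4 weeks after withdrawal. The pools at 4 weeks lay wholly below those of 1 week (3.72% of all genes did), and no group was separate from control. Its log2 fold change was −0.82 (standard error 0.31) for 4 weeks against 1 week and −0.07 (standard error 0.31) for 4 weeks against control (limma, adjusted p = 0.791 and 0.986). *Fn1* (fibronectin) was low, at 1.33, 1.72 and 2.69 in DEX and 0.554, 1.204 and 0.632 at 4 weeks, and was the 1 member with all pools at 4 weeks below all DEX pools. *Postn* (periostin) had 32 reads in all, 21 of them in control pool 2. *Fstl1* (follistatin-like 1) was 5.19, 10.1 and 10.5 (control), 12.8, 11.6 and 10.9 (DEX), 11.8, 9.94 and 12.01 (1 week) and 20.7, 18.6 and 18.6 (4 weeks), so the pools at 4 weeks were the 3 highest, and its log2 fold change at 4 weeks was 1.22 (standard error 0.30) against control (limma, adjusted p = 0.469). *Mgp* (matrix Gla protein, an inhibitor of calcification made by vessel walls) was 0.629, 2.47 and 6.42 in control and 12.01, 12.2 and 12.5 at 4 weeks, without overlap.

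Of the 5 receptor and contractile genes, *Pdgfrb* was called. *Pdgfrb* encodes the PDGF receptor that marks pericytes and fibroblasts. Pool values were 0.236, 1.77 and 0.544 in the control pools, 0.248, 0.572 and 0 in the DEX pools, 0.951, 2.68 and 1.56 in the pools 1 week after withdrawal and 6.56, 8.98 and 3.79 in the pools 4 weeks after withdrawal. All pools at 4 weeks were above the 9 other libraries, and those at 1 week were above DEX. On the log2 scale the change for 4 weeks against DEX was 4.43 (standard error 0.79) (limma, adjusted p = 0.0194), and against control it was 3.06 (standard error 0.79) (adjusted p = 0.5). Its F test gave an adjusted p of 0.0714 in limma and 0.0289 in edgeR's quasi-likelihood test. *Pdgfra*, the receptor of fibroblasts and glial precursors, had its 3 highest values at 4 weeks as well, 4.25, 2.19 and 3.43 against 0.393, 0.707 and 1.09 in control, but its log2 fold change against DEX of 3.14 (standard error 0.75) did not pass (adjusted p = 0.0659).

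All 5 genes of this class had their lowest mean in DEX, and the remaining 3 were not called by limma in any comparison. *Tagln* (ENSMUSG00000032085.5, chromosome 9, 45929619 to 45936058, minus strand) encodes transgelin, an actin-binding protein of smooth muscle. Normalised counts were 0.472, 1.06 and 2.83 in the control pools, 1.16, 1.06 and 0.785 in the DEX pools, 1.52, 1.15 and 2.56 in the pools 1 week after withdrawal and 1.66, 1.53 and 1.71 in the pools 4 weeks after withdrawal. Each group overlapped with control, although the pools at 4 weeks lay above DEX, and its log2 fold change was 0.48 (standard error 0.62) for 4 weeks against control (limma, adjusted p = 0.941), −0.09 without control pool 1 and 1.09 without control pool 3. *Tagln* overlaps *Pcsk7* on the opposite strand (mean 18.0 normalised counts), so its reads are uncertain. *Acta2*, the smooth muscle actin of contractile pericytes, was 0.472, 0.118 and 3.48 in control and 4.43, 0.219 and 1.71 at 4 weeks and separated no pair of groups, although its mean was highest at 4 weeks. *Cspg4* had at most 5 reads in any library.

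**Figure D4:**
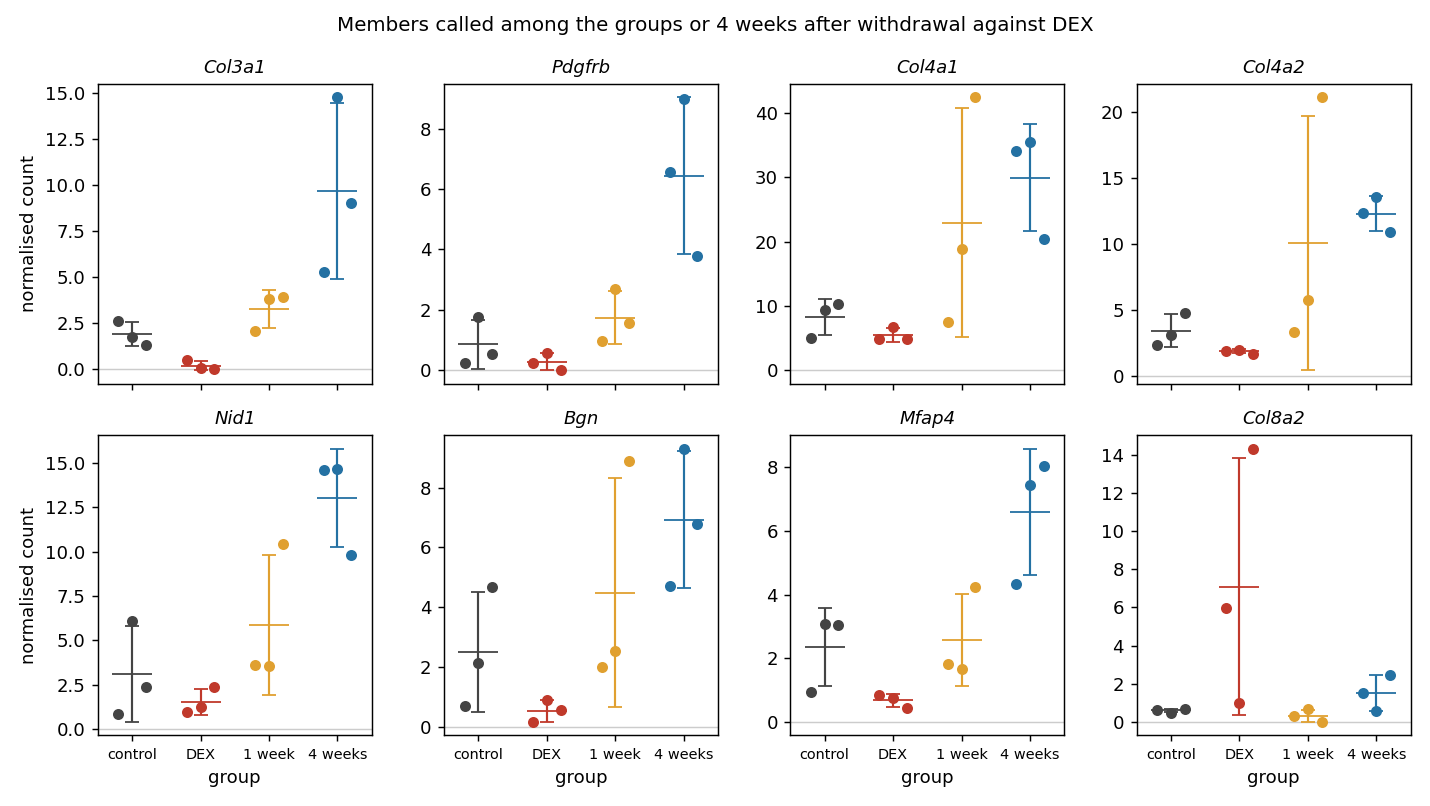
Normalised counts (vertical axis, separate scale per gene) of the 8 members called in the F tests or for 4 weeks against DEX, by group (horizontal axis). Points are the 3 pools, horizontal bars the mean and error bars the SD: *Col8a2* is highest in DEX, up to 14.4, and the other 7 are highest in mean at 4 weeks, with pool 3 at 1 week the single highest library for *Col4a1* and *Col4a2*.

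Endothelial markers were high and low in the same pools as many of the members. The 10 endothelial markers, none of them a member, summed to 11.01, 46.2 and 84.3 in the control pools, 7.12, 14.1 and 11.7 in DEX, 34.7, 46.3 and 211 at 1 week and 163, 176 and 91.9 at 4 weeks. All 10 had their lowest group mean in DEX and 7 their highest at 4 weeks. Of the 10, 6 were called higher in limma for 4 weeks against DEX, where 0.412% of all genes were. *Kdr* and *Emcn*, which encode a VEGF receptor and a vessel sialomucin, passed the F test (adjusted p = 0.0263 and 0.0422), as did 0.315% of all genes. The study listed *Kdr* and *Pecam1* of these markers as changed on the same samples, so they are not independent evidence. Pool 3 at 1 week had both the highest endothelial sum and the highest *Col4a1* and *Col4a2*, but also the lowest *Col18a1* and *Lox*. Control pool 1 had the lowest endothelial sum of the control pools. It was the lowest control pool for *Dcn*, *Lum*, *Ogn*, *Bgn*, *Nid1* and *Mgp*, among others. For other members, *Col3a1*, *Col6a2*, *Lamb1*, *Lox* and *Fn1* among them, it was the highest control pool. The 10 pericyte markers summed to 6.36 to 15.8 (control), 8.19 to 9.11 (DEX), 9.22 to 25.1 (1 week) and 12.4 to 17.7 (4 weeks), and 0 of them were called by limma in any comparison or by edgeR or DESeq2 among the groups (1 had an unadjusted F test p under 0.05 in limma). The 10 fibroblast markers summed to 84.05 to 128, 61.04 to 95.3, 66.9 to 186 and 97.7 to 161 in the same order and the 10 macrophage markers to 22.5 to 34.1, 16.7 to 23.1, 34.2 to 72.9 and 25.3 to 72.4. Of these 20 markers 0 were called by limma. Among the groups 3 macrophage markers were called by DESeq2 and by edgeR's likelihood ratio test, where 2.97% and 4.16% of all genes were. Unadjusted F test p-values under 0.05 in limma were reached by 3 fibroblast and 6 macrophage markers, against 9.21% of all genes. The pericyte, fibroblast and macrophage sums at 4 weeks overlapped those of control but lay above those of DEX. The group mean was lowest in DEX for 9 macrophage, 5 fibroblast and 4 pericyte markers among those tested. It was highest at 4 weeks for 8, 6 and 3 of them, so the macrophage markers followed this order about as often as the endothelial ones. The 6 markers of stem and folliculostellate cells, the non-endocrine cells of the anterior lobe, summed to 72.7, 67.6 and 106 (control), 80.6, 67.1 and 68.5 (DEX), 86.9, 66.5 and 81.2 (1 week) and 163, 124 and 128 (4 weeks), so the 3 pools at 4 weeks were again the highest. Of these 6, 5 had their highest mean at 4 weeks and 3 their lowest in DEX, limma called 0 (1 had an unadjusted F test p under 0.05) and DESeq2 called 1 among the groups. The part of these cells in the levels of the members was not tested.

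**Figure D5:**
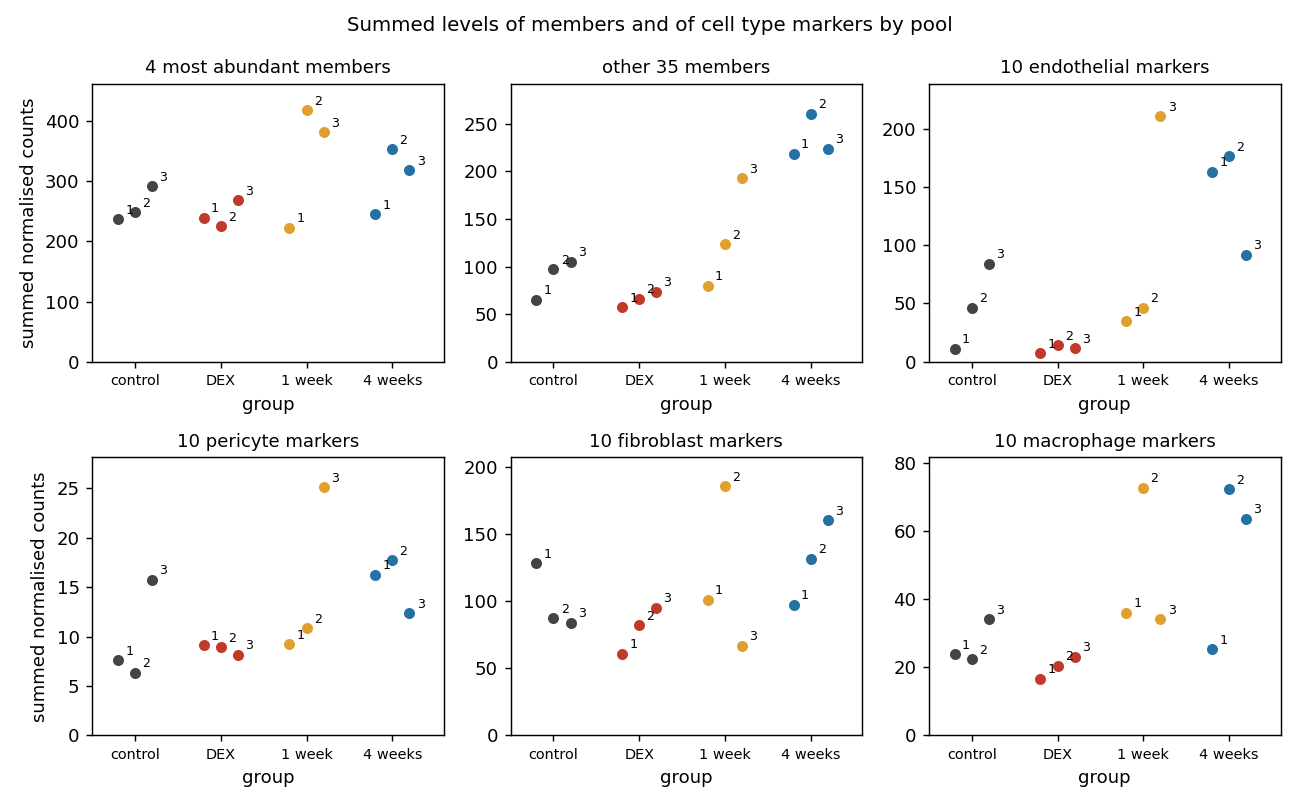
Summed normalised counts (vertical axes from 0) by group (horizontal axes) of the 4 most abundant members, the other 35 members and 4 lists of cell type markers, with each pool as a numbered point. The other 35 members and the endothelial markers are both high in the 3 pools at 4 weeks and in pool 3 at 1 week and low in the 3 DEX pools, and the 4 most abundant members are not.

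Pools differed in how many members peaked in them. Pool 2 at 4 weeks was the highest of the 12 libraries for 16 members, pool 3 at 1 week for 6 and pool 1 at 4 weeks for 4. DEX pool 3 was the single lowest library for 7 members and control pool 1 for 6. The median value of the 39 members was 0.865, 2.47 and 1.52 in the control pools, 0.828, 1.23 and 0.673 in DEX, 1.996, 1.91 and 2.11 at 1 week and 4.34, 6.02 and 5.32 at 4 weeks, so the 3 pools at 4 weeks held the 3 highest medians.

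Related genes outside the 39 were seldom called by limma. Of 29 further collagens, 12 laminins and other basement membrane genes, 21 genes of collagen processing, 12 proteases and inhibitors and 12 PDGF and TGF beta signals, 0 passed the limma F test, and unadjusted p-values under 0.05 were reached by 3, 6, 3, 4 and 4 of them, against 9.21% of all genes. edgeR's quasi-likelihood F test called 1, *Nid2*, which encodes nidogen 2 (adjusted p = 0.047). The study listed *Nid2* as changed on the same samples, so its calls are not independent evidence. *Nid2* was measured at 10.3, 12.3 and 13.7 in the control pools, 8.53, 11.04 and 9.195 in the DEX pools, 11.7, 21.2 and 19.5 in the pools 1 week after withdrawal and 29.1, 30.1 and 24.001 in the pools 4 weeks after withdrawal, so its pools at 4 weeks were above all other libraries. For 4 weeks against DEX limma called *Nid2*, *Pcolce*, which encodes an enhancer of procollagen cleavage, and *Tgfb1*, which encodes the growth factor TGF beta 1 (log2 fold changes 1.52, 2.03 and 2.88, the last 2 named after their values were seen), where 0.873% of all genes were called. Among the groups edgeR's likelihood ratio test called 0, 2, 2, 3 and 1 genes of the 5 lists and DESeq2 0, 2, 2, 1 and 2 (4.16% and 2.97% of all genes). The median log2 fold change for 4 weeks against control was 0.02 for the further collagens, 0.61 for the laminins and other basement membrane genes and 0.25 for collagen processing, beside 1.42 for the 39 members.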

How the data were processed

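The deposited table holds, for each gene and library, a normalised count that the authors made as follows. Per the labels and the methods of the study, reads were trimmed with Trim Galore 0.6.5, aligned to GRCm38 with STAR 2.7.1a, and read pairs were assigned to genes with featureCounts 2.0.0 in strand-specific mode, although the library kit does not mark the strand. The count was then divided by an effective library size with edgeR, so the deposited signal is CPM on that size, with scaling factors of 0.702 to 1.21. The column sums differed between libraries (823964 to 1423897), so the values were not the plain CPM that the design had assumed. All 271881 values above 0 were whole multiples of 1 read (100% within 1e-06 reads), so reads were recovered for the count models. No 2 libraries of 1 group held identical values.

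Here the 39 members and the other gene lists were chosen with earlier results of these data known. Genes above 0.1 in at least 3 libraries (24736) were fitted with limma 3.58.1 (R 4.3.3; lmFit, eBayes with trend) on log2(value + 0.1), with 12 libraries in 4 groups and no covariate, Benjamini-Hochberg adjustment and a threshold of 0.05. Count models on recovered reads (edgeR 4.0.16 with both of its tests, DESeq2 1.42.0), pseudocounts of 0.5 and 1, no filter, a filter at 1, median ratio scaling, array weights, the replicate number as a block and each library left out were the alternatives. The fits were run on simulated counts with the same spread for every gene and known changes only in genes above 1 normalised count. Some members lie lower, and some, such as *Dcn*, vary widely between pools of a group. That run therefore does not show how well changes of such members are found. Values of every library are given for members called by limma or by edgeR's quasi-likelihood F test and for the member of each class with the highest level per kb of exon. For other members ranges or group values are given. Gene coordinates and exon lengths are from GENCODE M21 on GRCm38, and promoter sequences, held for 24 of the 39 members, are from RefSeq (GRCm38.p6). The floor of 3 reads only marks the lowest counts and does not remove counting error above it. Reads of the amplified RNA carry no molecular identifiers, so the number of molecules behind a count is not known. Motifs were searched on both strands of the 250 bases before each start.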

Additional observations from a re-analysis of the deposited data

Results flagged for a closer look

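For 7 members the effect of 4 weeks of recovery, relative to control, differed from the effect of DEX, relative to control, in limma's test of that difference (adjusted p under 0.05 over all genes). On the log2(value + 0.1) scale the difference was 5.34 for *Col3a1*, 4.43 for *Pdgfrb*, 3.597 for *Bgn*, 3.11 for *Mfap4*, 3.08 for *Nid1*, 2.67 for *Col4a2* and 2.40 for *Col4a1*. In each of the 7 genes all 3 pools at 4 weeks lay above all 3 DEX pools, as they did for 9.8% of all genes. For *Col3a1* the effect of 1 week of recovery differed from that of DEX as well, by 3.88, with all 3 pools above all 3 DEX pools (6.97% of all genes). Both effects share the control pools, which cancel in the difference. These are thus the comparisons with DEX given above and not further results. In them 0.873% (4 weeks) and 0.433% (1 week) of all genes were called. No member passed for any of these effects against control.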

How the results depend on the processing

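Shares of all genes are given above for the main limma fit, both edgeR tests and DESeq2. They are not given for the other settings, so member counts there show only how the calls move. Among the 4 groups limma called 1 member. The count was 2 with a pseudocount of 0.5 or 1, 14 with array weights, 6 with edgeR's quasi-likelihood test, 17 with its likelihood ratio test and 12 with DESeq2, and 0 to 5 with 1 library left out, where 0 came without DEX pool 3. DEX against control gave 0 members, against 1 with array weights, 5 with the likelihood ratio test and 2 with DESeq2. The count for 4 weeks against control was also 0, against 6 with array weights, 6 with the likelihood ratio test and 3 with DESeq2. For 1 week against DEX it was 1, against 2, 10 and 5 with the 2 edgeR tests and DESeq2, and 0 to 3 with 1 library left out. For 4 weeks against DEX it was 7, against 18 with array weights, 15 with the likelihood ratio test and 11 with DESeq2, and 1 to 10 with 1 library left out; these 7 members were called by all 10 alternatives that kept every library. The median log2 fold change of the members for 1 week against control was 0.42 and became −0.11 with array weights. For 4 weeks against control and against DEX it was 0.86 and 0.96 with a pseudocount of 1, in place of 1.42 and 1.61, because a larger pseudocount shrinks low genes, and 1.37 to 2.15 against DEX with 1 library left out. For 4 weeks against 1 week it was 1.49 with array weights in place of 0.86. The cause of the other moves was not tested. No result changed sign past its threshold. Pool numbers are shared by the labels. Same-numbered libraries deviated from their group means with correlations of −0.29 to 0.40 (median 0.056, 7 of 18 over 0.1), beside a median of −0.014 for differently numbered ones. They were not taken as pairs in the main fit, but an effect shared by pools of 1 number is not excluded. With the replicate number as a block 3 members were called among the groups and 9 for 4 weeks against DEX, and 8 of 12 libraries correlated best with a library of their own number.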
